A study of Homo sapiens with 8 samples.

Results

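The 10 genes described here encode perlecan (HSPG2) and 9 further parts or partners of the basement membrane: AGRN, COL18A1, LAMA5, LAMB1, LAMB2, LAMC1, NID1, FN1 and DAG1. They are 10 of the 58302 genes in the count table. The set was selected on the same contrast that is described below, because HSPG2 was among the genes with the most significant decreases, and the other members were listed around it. Their differences are therefore given as a description, and nothing is supported with them. Of the 10 members, 9 had enough counts to enter the model, and NID1 did not.

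RNA sequencing was carried out on DLD1, a human colorectal cancer cell line. OE-WT cells had been transduced with lentivirus and stably overexpressed wild-type TRMT6 together with TRMT61A, the subunits of the methyltransferase that places N1-methyladenosine (m1A) on tRNA. CTRL cells carried the empty vector. There were 2 OE-WT and 2 CTRL libraries, from duplicate cultures according to the labels, each sequenced on 2 lanes that the table combines. Both groups share the parental line and the lentiviral backbone. The labels do not say whether either line was 1 clone or a pool, and the design text speaks of TRMT6 and TRMT61A overexpression as separate groups whereas the sample labels give 1 combined group.

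A basement membrane is a thin sheet of extracellular matrix under epithelia and around muscle, nerve and vessels. Laminins, each built from an alpha, a beta and a gamma chain, polymerise at the cell surface on receptors such as integrins and dystroglycan. A network of type IV collagen is laid over them, and nidogen and the heparan sulfate proteoglycans perlecan and agrin bridge the layers. In the colon this sheet separates the epithelium from the stroma, and carcinoma cells both secrete its parts and cut through it.

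The promoters of 3 members are shown because they belong to the member with the largest decrease (HSPG2), the laminin alpha chain that dominated these cells (LAMA5) and the only member called higher in OE-WT (FN1). Each run is the 250 bases before the RefSeq transcript start on GRCh38.p14, written 5′ to 3′ on the strand of the gene, and capitals mark matches to the GC box on either strand. HSPG2 is read from chr1:21937311-21937560, LAMA5 from chr20:62367313-62367562 and FN1 from chr2:215436069-215436318, all on the minus strand.
HSPG2: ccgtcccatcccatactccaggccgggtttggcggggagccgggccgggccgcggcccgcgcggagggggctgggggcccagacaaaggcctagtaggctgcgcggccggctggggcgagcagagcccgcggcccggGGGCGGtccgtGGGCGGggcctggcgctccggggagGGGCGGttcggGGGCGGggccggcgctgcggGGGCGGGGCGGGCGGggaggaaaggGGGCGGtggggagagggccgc
LAMA5: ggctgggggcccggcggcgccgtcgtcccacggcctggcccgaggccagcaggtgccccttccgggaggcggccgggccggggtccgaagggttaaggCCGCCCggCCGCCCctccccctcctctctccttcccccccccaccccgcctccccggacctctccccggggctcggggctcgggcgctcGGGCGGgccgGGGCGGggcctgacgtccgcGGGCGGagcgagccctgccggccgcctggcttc
FN1: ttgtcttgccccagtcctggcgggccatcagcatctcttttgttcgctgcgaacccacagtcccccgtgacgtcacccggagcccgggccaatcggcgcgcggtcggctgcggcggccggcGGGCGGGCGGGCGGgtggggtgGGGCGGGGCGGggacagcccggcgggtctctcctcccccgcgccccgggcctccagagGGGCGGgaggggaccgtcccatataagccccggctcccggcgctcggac
RefSeq promoters were matched for 9 of the 10 members, with 11 entries because COL18A1 and DAG1 have a pair each. The GC box, GGGCGG searched on both strands with overlapping matches counted, was present in 11 of the 11 entries, against 42.6% of the 35116 promoters of the same length. HSPG2 had 8 matches and 82.8% GC, LAMA5 had 5 matches and 82.8% GC, and FN1 had 6 matches and 76.4% GC, where the median promoter had 58% GC. AGRN, called lower, had no promoter entry and was not searched. The member called higher and the other members called lower shared this feature, as did LAMB1, DAG1 and NID1. The TATA box, TATAAA, was found in 1 of the 11 entries (10.7% of all promoters), the E-box CAGGTG in 1, that of LAMA5 (17.5%), the TEAD motif CATTCC in 0 (11.9%), and the AP-1 motif TGACTCA in 0 (1476 of the 35116).

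The libraries held 10327498 to 12379671 counts on genes. A count of 0 allowed up to 3 counts, which is 0.242 to 0.290 CPM (read counts scaled to library size, elsewhere with TMM factors), and this limit covers counting error only. TRMT6 had 196 ± 21.1 CPM in OE-WT and 54.0 ± 1.99 in CTRL, and TRMT61A had 134 ± 5.02 and 57.9 ± 1.48 (SD, n = 2 libraries each), so both were higher in the cells labelled as overexpressing them. Of 10 colorectal epithelium markers, 10 were detected and 7 reached 10 CPM in CTRL, although CDX1 had 1 count in all. At an adjusted p below 0.05, 3 of the 9 tested fell (11.6% of all genes tested) and 2 rose (9.44%). KRT20, a keratin of differentiated colon epithelium, fell by 1.52 on the log2 scale (adjusted p = 7.0e-08 by the quasi-likelihood test of edgeR). CDH1 and KRT19 were also called lower, at -0.29 and -0.19. KRT8 and KRT18 were called higher, at 0.25 and 0.30, and EPCAM, VIL1, CDX2 and LGALS4 were not called. The part of these differences in the members' values was not tested. Of 12 fibroblast markers 6 were at 0 in every library, and their summed level was 4.62 to 5.74 CPM in OE-WT and 4.87 to 5.99 in CTRL. Endothelial markers summed to 1.81 and 2.06 CPM in OE-WT and to 2.88 and 1.70 in CTRL, with 2 of 6 at 0 throughout, and leukocyte markers stayed between 0.403 and 0.544 CPM. In bulk RNA, fewer cells of a kind and less RNA per cell cannot be told apart.

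Perlecan was the member that differed most. HSPG2 (ENSG00000142798, GRCh38 chromosome 1, 21822244 to 21937310, minus strand) encodes a very large heparan sulfate proteoglycan that stores growth factors in the matrix. It had 81.3 and 82.3 CPM in the OE-WT libraries and 225 and 203 CPM in the CTRL libraries. The groups did not overlap, and every CTRL library was at least 2.47-fold above every OE-WT library. The mean level was 81.8 ± 0.679 CPM in OE-WT and 214 ± 15.5 CPM in CTRL (SD, n = 2), which is 2.62-fold higher in CTRL. The log2 fold change, OE-WT over CTRL, was -1.39 (standard error 0.07). By p-value HSPG2 ranked 1 among the genes that were lower in OE-WT and 4 among all genes, and by the size of the decrease it ranked 112. This rank is what brought HSPG2 into the set.

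Agrin and collagen XVIII, the other basement membrane proteoglycans of the set, were also lower in OE-WT. AGRN (ENSG00000188157, chromosome 1, 1020120 to 1056118), which clusters acetylcholine receptors at the neuromuscular junction and binds dystroglycan, had 838 and 816 CPM in OE-WT and 1179.8 and 1214 CPM in CTRL. The groups did not overlap, and the log2 fold change was -0.53 (standard error 0.07). COL18A1 (ENSG00000182871, chromosome 21, 45405165 to 45513720), the precursor of the angiogenesis inhibitor endostatin, had counts of 52 and 59 in OE-WT and of 117 and 144 in CTRL. Here too the groups did not overlap, with a log2 fold change of -0.91 (standard error 0.19), and the lower counts gave the wider error. Without CTRL replicate 2 the value for COL18A1 was -0.72.

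**Figure D1:**
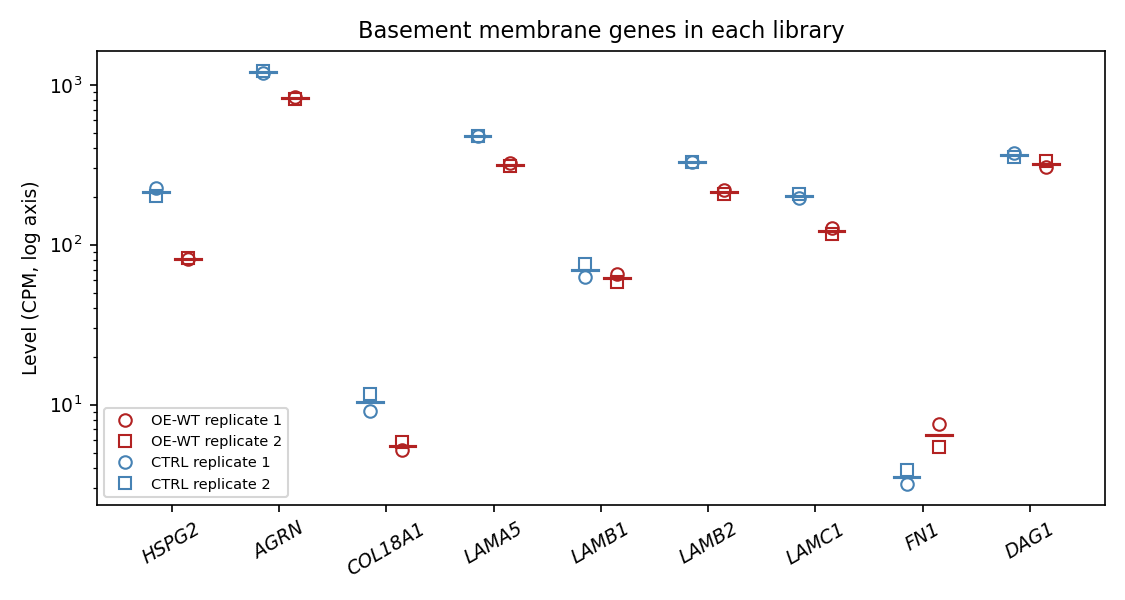
Level of 9 members in each library in CPM on a log axis. Circles and squares are replicates 1 and 2, red is OE-WT, blue is CTRL, and bars are the group means. HSPG2 shows the widest gap, the LAMB1 libraries overlap, FN1 is the only member with OE-WT above CTRL, and NID1 is not drawn because it had 0 to 2 counts.

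The laminin chains LAMA5, LAMB2 and LAMC1, which can assemble into 1 trimer, were each lower in OE-WT. LAMA5 (ENSG00000130702, chromosome 20, 62307955 to 62367312), the alpha chain of most adult epithelial basement membranes, had 323 and 309.96 CPM in OE-WT and 478 and 477 CPM in CTRL, a log2 fold change of -0.59 (standard error 0.06). LAMB2 (ENSG00000172037, chromosome 3, 49121114 to 49133118), a beta chain enriched at the kidney filter and the neuromuscular junction, had 219 and 209 CPM in OE-WT and 329 and 328 in CTRL, a log2 fold change of -0.62 (standard error 0.06). LAMC1 (ENSG00000135862, chromosome 1, 183023420 to 183145592), the most widely used gamma chain, had 128 and 117 CPM in OE-WT and 197 and 207 in CTRL, a log2 fold change of -0.72 (standard error 0.07). In each of these genes both OE-WT libraries lay below both CTRL libraries. The mean level in CTRL was 1.51-fold higher for LAMA5, 1.54-fold for LAMB2 and 1.65-fold for LAMC1.

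LAMB1 did not follow them. LAMB1 (ENSG00000091136, chromosome 7, 107923799 to 108003213), the beta chain of the earliest embryonic basement membrane, had 65.5 and 58.1 CPM in OE-WT and 63.2 and 75.5 CPM in CTRL. The libraries overlapped, the log2 fold change was -0.17 (standard error 0.09), and it ranged from -0.29 to -0.03 with 1 library left out at a time. The difference was called only when library size alone was used for scaling, where it was -0.26.

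Of the linker, the fibrillar partner and the receptor, each showed a different picture. NID1 (ENSG00000116962, chromosome 1, 235975830 to 236065109), which ties laminin to type IV collagen, had counts of 0 and 0 in OE-WT and of 2 and 1 in CTRL. All 4 values are within the limit that a count of 0 allows, so no difference was detectable at this depth and no fold is given. FN1 (ENSG00000115414, chromosome 2, 215360440 to 215436073), the fibronectin that cells bind through integrins and that marks mesenchymal matrix, had counts of 75 and 55 in OE-WT and of 41 and 48 in CTRL. The groups did not overlap, the level was 6.48 ± 1.52 CPM against 3.54 ± 0.502 CPM (SD, n = 2), and the log2 fold change was 0.87 (standard error 0.23). It was 0.61 without OE-WT replicate 1, and DESeq2's Wald test did not call it. DAG1 (ENSG00000173402, chromosome 3, 49468713 to 49535618), the precursor of both dystroglycan subunits and a receptor for laminin, agrin and perlecan, had 308 and 336 CPM in OE-WT and 375 and 355 in CTRL. Both OE-WT libraries were below both CTRL libraries, but the log2 fold change was only -0.18 (standard error 0.07) and was not called. DAG1 was called with library size alone (-0.27) and after a trend on transcript length was removed (-0.21).

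In counts over the set, 6 of the 9 members tested were called lower at an adjusted p below 0.05 (11.6% of all 14133 genes tested) and 1 was called higher (9.44%). At p below 0.05 with an absolute log2 fold change above 1, the thresholds used in the study, HSPG2 was called lower (2.25% of all genes tested) and 0 members were called higher (0.899%), although edgeR gave FN1, at 0.87, an unadjusted p below 0.05. Both OE-WT libraries were below both CTRL libraries in 7 members (30.2% of all genes tested) and above them in 1 (29.9%). The median log2 fold change was -0.59 over the 9 members and 0.01 over all genes tested. The set was chosen with results of this contrast known, so these counts are given as a description.

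**Figure D2:**
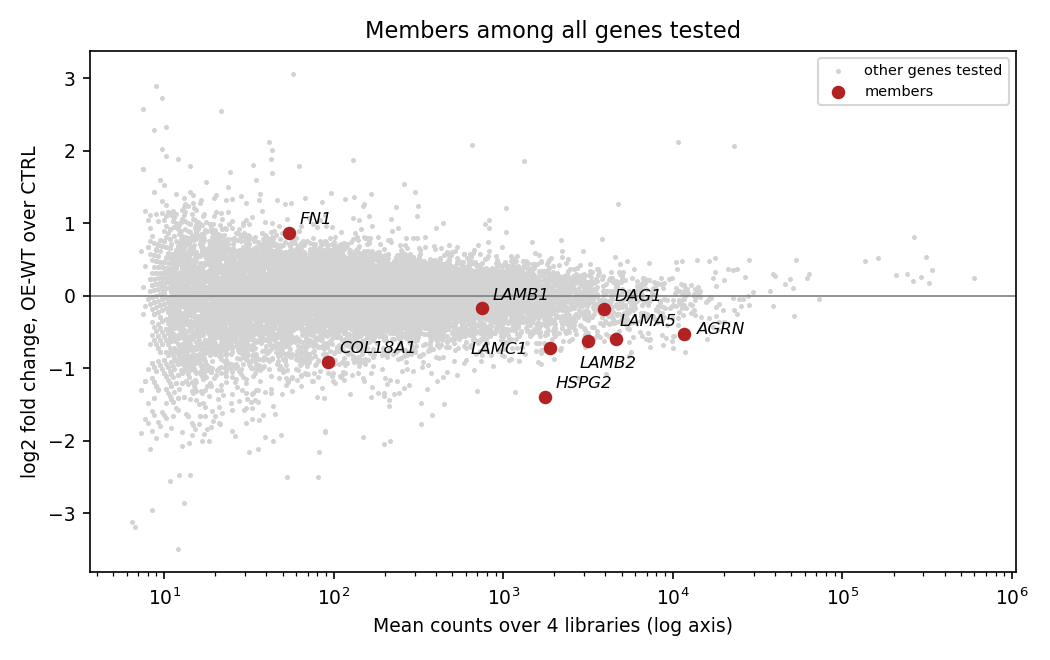
Log2 fold change, OE-WT over CTRL, against mean counts on a log axis for the 14133 genes tested (gray) with the 9 tested members in red. HSPG2, at -1.39, lies at the lower edge of genes of its abundance, LAMB1 and DAG1 lie within the bulk, and FN1 lies above it at 0.87.

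Properties of the members' transcripts were read beside their differences, and the part of each was not tested. Transcript GC content was 64.5% for HSPG2, 67.6% for AGRN, 67.2% for COL18A1, 66.4% for LAMA5 and 60.3% for LAMB2, against a median of 49.0% over the 11620 protein-coding genes tested. LAMB1, LAMC1 and FN1, at 49.4%, 48.8% and 50.8%, were near that median, and LAMC1 was lower in OE-WT by more than AGRN, LAMA5 or LAMB2. When a smooth trend on GC content was removed from each library, HSPG2 moved from -1.39 to -1.19, COL18A1 from -0.91 to -0.69 and LAMB2 from -0.62 to -0.49. AGRN moved from -0.53 to -0.31 and LAMA5 from -0.59 to -0.38. LAMC1 stayed at -0.74 and FN1 at 0.88, no member changed direction or call, and the median of the members moved from -0.59 to -0.38. Removing a trend on transcript length instead put HSPG2 at -1.52.

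All 10 members encode secreted or membrane proteins, and a hydrophobic stretch like that of a signal peptide was found near the N-terminus of 10 of 10 coding sequences, against 17.1% of the protein-coding genes tested. Among the 1991 tested genes with such a stretch, 33.5% were called lower and 5.12% higher, with a median log2 fold change of -0.21. According to the labels, RNA was extracted from the supernatant of a centrifuged lysate, and the part of that step in these values was not tested. Coding sequences were long, from 2685 to 13173 bases with a median of 5376 against 1395 over the protein-coding genes tested. The codons GAC, GAG, GCA and TTG, read by the tRNAs that the study followed, made up 7.23% to 12.3% of the members' codons, with a median of 9.59% against 9.46%, and HSPG2 had 8.56%.

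**Figure D3:**
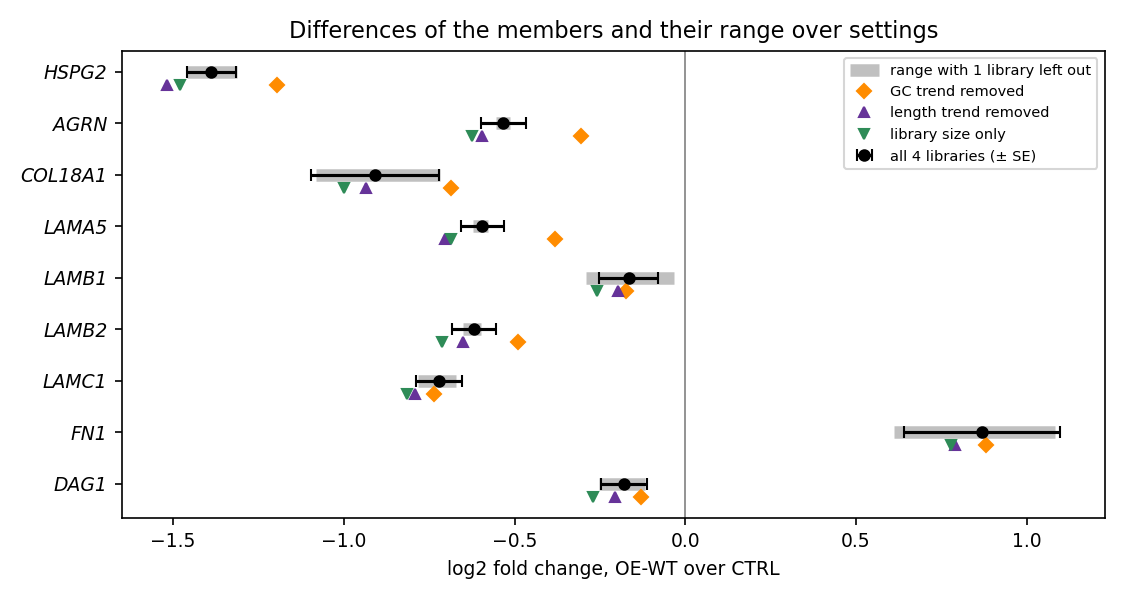
Log2 fold change, OE-WT over CTRL, of the 9 tested members. Black points are the values from all 4 libraries with the standard error, gray bars the range with 1 library left out at a time, orange diamonds the values with a GC trend removed, purple triangles with a length trend removed and green triangles with library size only. HSPG2 stays between -1.52 and -1.19, AGRN and LAMA5 lie at -0.31 and -0.38 with the GC trend removed, and LAMB1 and DAG1 lie nearest 0.

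Annotated genes that overlap a member were read with it, since the strand setting of the counting is not given in the sources used here. The 3′ end of HSPG2 overlaps that of LDLRAD2, a gene of the opposite strand, over 2982 bases. LDLRAD2 counts were 118 and 115 in OE-WT libraries and 344 and 392 in CTRL libraries. Its log2 fold change, -1.33 with a standard error of 0.13, was close to that of HSPG2 and was called (adjusted p = 2.0e-07 by the quasi-likelihood test of edgeR). The labels give strand-specific libraries, but if the counting ignored strand, the reads of these genes in the overlap cannot be told apart. LDLRAD2 has fewer counts than HSPG2 in every library. LAMA5-AS1, a noncoding RNA antisense to LAMA5, had counts of 61 and 53 in OE-WT and of 128 and 85 in CTRL, and its log2 fold change of -0.57 (standard error 0.20) was not called. ADRM1, which overlaps LAMA5 by 908 bases on the other strand, was at 0.15, and SLC19A1, which overlaps COL18A1 by 20149 bases, was at -0.12, neither of them called. DLD, which overlaps LAMB1 by 7932 bases, was at 0.36 (adjusted p = 0.031 by the quasi-likelihood test of edgeR). The other 10 overlapping genes had at most 10 counts in any library.

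The 3 genes whose pattern over the 4 libraries was nearest to that of HSPG2, by Euclidean distance of centred log2(CPM + 0.5) among 10214 genes, were EEF1A2, FGFR4 and SLC44A4. EEF1A2, a translation elongation factor, was at a distance of 0.0939 and had counts of 340 and 343 in OE-WT and of 1158 and 970 in CTRL. FGFR4, a fibroblast growth factor receptor, was at 0.0990, and SLC44A4, a membrane transporter, was at 0.121. The measure rests on 4 values per gene.

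Levels per kilobase of exon, the scale on which genes can be compared with each other, differed widely between members in CTRL. AGRN was highest at 111 ± 2.23 CPM per kb, followed by DAG1 at 50.8 ± 1.95, LAMB2 at 47.8 ± 0.113, LAMA5 at 33.4 ± 0.0725 and LAMC1 at 23.9 ± 0.772 (SD, n = 2). HSPG2 was next at 11.8 ± 0.856, then LAMB1 at 3.73 ± 0.468, COL18A1 at 1.23 ± 0.217 and FN1 at 0.206 ± 0.0291, with NID1 within the limit of a count of 0. DAG1 and LAMB2 were the closest neighbours, with 52.1 and 49.4 CPM per kb against 47.9 and 47.7, and the values of all other neighbours lay further apart than their spread. In OE-WT the order was kept, with HSPG2 at 4.51 ± 0.0375 and LAMB1 at 3.32 ± 0.281. That order depended on the length used: per kb of the longest transcript, HSPG2 was at 14.9 and LAMB1 at 10.3 in CTRL, and at 5.70 and 9.17 in OE-WT, so that LAMB1 lay above HSPG2 there.

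Within the laminin families, LAMA5 made up 95.4% of the alpha chain level per kb in CTRL and 94.2% in OE-WT. Among beta chains the share of LAMB3 was 71.9% in CTRL and 69.1% in OE-WT, that of LAMB2 26.1% and 27.9%, and that of LAMB1 2.03% and 2.98%. The share of LAMB1 did not overlap between the groups, at 1.86% and 2.21% in CTRL and 3.11% and 2.85% in OE-WT, and with the longest transcript as length the means were 4.90% and 7.06%. The most abundant beta chain per kb was thus LAMB3, which lies outside the set, with LAMB2 second.

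**Figure D4:**
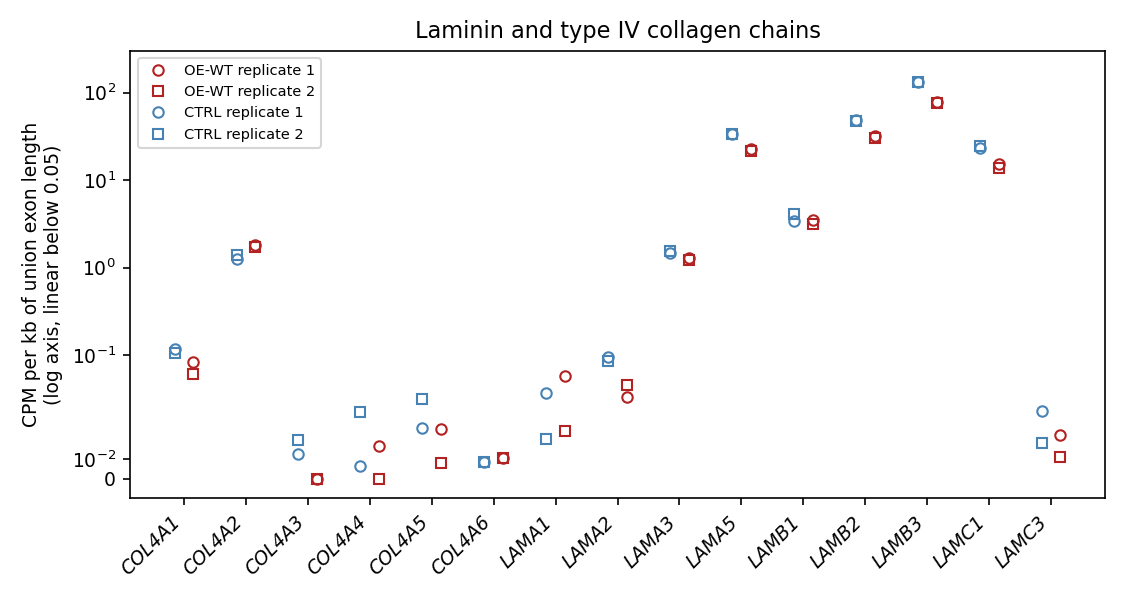
Level of 15 laminin and type IV collagen chains in each library, in CPM per kb of union exon length on a log axis that is linear below 0.05. Circles and squares are replicates 1 and 2, red is OE-WT and blue is CTRL. Not every chain is drawn. LAMA5, LAMB2, LAMB3 and LAMC1 lie lower in OE-WT, COL4A2 lies higher, and the remaining type IV collagen chains are near the limit of detection.

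The other genes of the pathway were taken from lists written from general knowledge and counted in the same fit, in which 11.6% of all genes tested were called lower and 9.44% higher. As with the members, these lists were written with results of the data known, and many of their genes encode secreted or membrane proteins. Of the laminin chains outside the set, 4 of 8 were tested, of which 3 fell and 1 was not called (median log2 fold change -0.65). LAMB3 fell by 0.77 on the log2 scale (adjusted p = 3.2e-08 by the quasi-likelihood test of edgeR, as for all adjusted p-values here), with groups that did not overlap. LAMA2, at 11 to 32 counts, fell by 0.99 (adjusted p = 0.041), and LAMA3, at -0.25, was not called. The 4 chains that were not tested had at most 9 counts in a library. Type IV collagen was nearly silent apart from COL4A2. COL4A2, with counts of 351 and 341 in OE-WT and of 308 and 330 in CTRL, rose by 0.44 after scaling (adjusted p = 0.0027), and COL4A1, its partner in the common type IV collagen trimer, had 12 and 9 counts against 22 and 19 (log2 fold change -0.63, not called). COL4A3, COL4A4, COL4A5 and COL4A6 had at most 6 counts in a library.

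Of 25 other basement membrane components 9 were tested. Of these, 6 fell (11.6% of all genes tested) while 1 rose (9.44%), with a median of -0.49. NTN1 and NTN4, netrins that guide axons and bind laminin, fell by 1.15 (adjusted p = 8.7e-07) and 0.81 (adjusted p = 3.8e-05). MATN2, a matrilin, fell by 0.57 (adjusted p = 0.018), and TGFBI, an adhesion protein secreted into the matrix, rose by 0.23 (adjusted p = 0.016). The call of MATN2 was lost with DESeq2's Wald test and that of TGFBI with library size only, where it was at 0.14.

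Enzymes that build these molecules were counted next, in the fit where 1642 of all 14133 genes tested (11.6%) were called lower and 9.44% higher. Of 19 genes for the folding and cross-linking of collagens, type IV among them, 9 fell and 10 were not called (median -0.27). They included the proline and lysine hydroxylases P3H1, at -0.59 (adjusted p = 8.3e-06), and PLOD1, at -0.46 (adjusted p = 5.1e-05), and CRTAP, the partner of P3H1, at -0.44 (adjusted p = 0.00019). Of 22 tested genes for the assembly of heparan sulfate, the sugar chain of perlecan and agrin, 10 fell, 1 rose and 11 were not called (median -0.19). XYLT2, which starts the chain, fell by 0.71 (adjusted p = 1.0e-05), the chain polymerase subunit EXT2 by 0.50 (adjusted p = 1.3e-05) and the epimerase GLCE by 0.58 (adjusted p = 0.029), while UGDH, which makes the precursor UDP-glucuronic acid, rose by 0.33 (adjusted p = 0.0021). The call of GLCE was lost with DESeq2's Wald test, and UGDH was at 0.21 with the GC trend removed. With that trend removed 6 of these 22 genes were called lower, against 1456 of all 14133 genes tested. With DESeq2's Wald test 4 of these 22 were called lower, against 854 of all 14133.

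The sugar that lets alpha-dystroglycan bind laminin is made by 18 further genes, all tested, of which 4 fell, against 11.6% of all genes tested, and 14 were not called (median -0.02). POMT1, a mannosyltransferase that starts this sugar, fell by 1.26 (adjusted p = 1.8e-06), B4GAT1 by 0.58 (adjusted p = 0.00072) and POMGNT1 by 0.34 (adjusted p = 0.0018). Of the 8 tested partners of dystroglycan inside and beside the cell membrane, 2 fell, 2 rose (9.44% of all genes tested) and 4 were not called (median 0.15). SNTB1, a syntrophin, rose by 0.63 (adjusted p = 0.00026). PLEC, the linker plectin, fell by 0.53 (adjusted p = 1.1e-05), or by 0.32 with the GC trend removed.

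Of 19 tested receptors of basement membranes and fibronectin, 10 fell, 2 rose and 7 were not called (median -0.26). SDC3, a syndecan, fell by 0.92 (adjusted p = 9.5e-06), BCAM, a receptor for LAMA5, by 0.81 (adjusted p = 4.9e-07) and CD44, the hyaluronan receptor, by 0.81 (adjusted p = 6.8e-07). ITGA1, a collagen-binding integrin alpha chain, rose by 1.27 (adjusted p = 0.0013) from 25 and 45 counts in CTRL to 58 and 77 in OE-WT. Its value ranged from 0.88 to 1.78 with 1 library left out at a time. SDC4 rose by 0.24 (adjusted p = 0.023), a call that 4 alternatives did not make, and was at 0.13 without OE-WT replicate 2. Of 5 tested enzymes that cleave basement membranes 4 fell and 1 was not called (median -0.47), among them the cathepsins CTSL, at -0.89 (adjusted p = 3.8e-08), and CTSB, at -0.83 (adjusted p = 1.7e-07), and the procollagen proteinase BMP1, at -0.47 (adjusted p = 0.00046). Over all lists 48 of 106 tested genes fell, 7 rose and 51 were not called, with a median of -0.25, where 11.6% of all genes tested were called lower and 9.44% higher, and 33.5% and 5.12% of those with a hydrophobic stretch near the N-terminus.

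**Figure D5:**
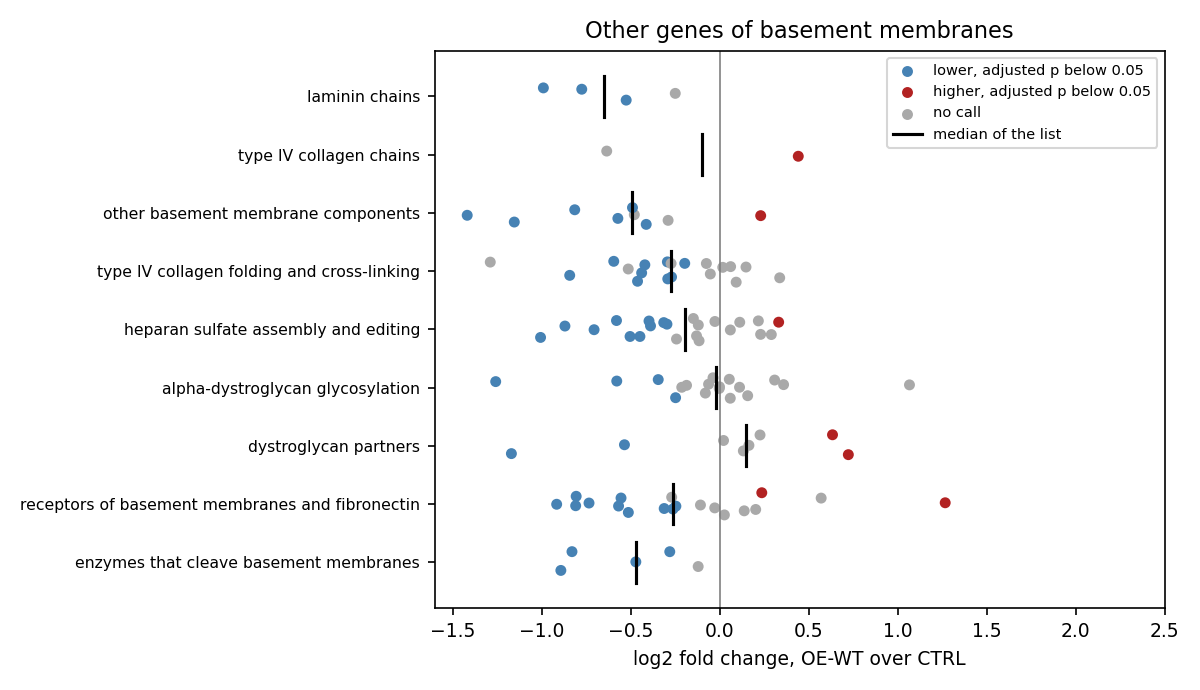
Log2 fold change, OE-WT over CTRL, of each tested gene in 9 lists of basement membrane genes outside the set, 1 row per list. Blue points were called lower and red points higher at an adjusted p below 0.05, gray points were not called, and the black bar is the median of the list. The medians run from -0.65 for the other laminin chains to 0.15 for the partners of dystroglycan.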

How the data were processed

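Per the labels, RNA was taken from a cleared lysate of DLD1 cells, poly(A) RNA was selected and strand-specific libraries were made; the study's methods instead describe removal of ribosomal RNA and 3 replicates per group. The deposited values are raw counts per gene. The submitters' processing notes name HISAT2 2.2.1, featureCounts 2.0.0 and DESeq2 1.34.0 with GRCh38, whereas the methods name HISAT2, HTSeq and edgeR; the annotation release and strand setting are not given in the sources used here. The table has 1 column for each of 4 libraries and 0 other columns per sample.

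Identifiers were matched to GENCODE release 44 (57532 of 58302). Genes passing edgeR's filter by group (minimum count 10; 14133 genes) were scaled by TMM and tested with edgeR 4.0.16 (R 4.3.3) by its quasi-likelihood test with group as the only term; p-values were adjusted over all of them (Benjamini-Hochberg). A call is an adjusted p below 0.05. The standard error is the log2 fold change divided by the root of F. An exact two-sided permutation test of 2 against 2 libraries reaches 0.333 at best. Steps were tested on simulated counts. Transcript GC content and coding sequences were those of canonical transcripts, and a hydrophobic stretch means 11 residues, among the first 40, whose Kyte-Doolittle hydropathy averages 2.0 or more. Levels per kb used union exon length, with the longest and, added after the data were seen, the canonical transcript as alternatives.

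The members and lists were chosen with earlier results of these data known. Named genes were the members, TRMT6 and TRMT61A, genes overlapping a member, all laminin and type IV collagen chains, the 3 genes nearest HSPG2, and per list up to 3 called increases and 3 called decreases of largest size with at least 50 mean counts and separated groups. Some genes that meet this rule are not reported here. CDX1, KRT20 and the other epithelium markers were named after their values were seen. Alternatives were DESeq2 1.42.0, edgeR's exact test, scaling by library size only or by RLE, 2 other filters, a replicate block, GC and length trends (lowess, span 0.3) and each library left out. Ribosome profiling and tRNA sequencing were not analysed here.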

Additional observations from a re-analysis of the deposited data

How the results depend on the processing

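Over the alternatives run, no fold change of a member, or of another named gene that was refitted, turned its direction; the level order of HSPG2 and LAMB1 in OE-WT turned with the length used (4.51 and 3.32 CPM per kb of union exon, 5.70 and 9.17 per kb of the longest transcript). Fold changes of LAMA2, LAMA3, COL4A1, TRMT6, TRMT61A, the overlapping genes, the nearest genes and the markers were not recomputed. DESeq2's Wald test called 1373 genes at an adjusted p below 0.05 (1372 of them among the 2976 of edgeR's quasi-likelihood test) and 288 instead of 445 at p below 0.05 with an absolute log2 fold change above 1. Under this second rule the count was 738 among 26095 genes with at least 1 count and 216 among 13094 genes with at least 10 counts in every library, which changes the genes tested. With DESeq2 0 members instead of 1 were called higher, since FN1 lost its call. With library size only, 4 instead of 7 pathway genes were called higher. Among all genes called, higher calls then made up 23.0% (733 higher, 2451 lower) instead of 44.8% (1334 higher, 1642 lower). The cause of these shifts was not tested. Same-numbered libraries did not deviate together (correlation of deviations -0.07). This value rests on 2 libraries per group, and whether same-numbered libraries shared a culture or preparation was not tested. The fit with a replicate block called 2658 genes and kept the counts of members called. Among the named genes that fit lost the calls of TGFBI and SDC4. Leaving out 1 library leaves a group with 1, so it gave values with no test. With 2 libraries per group, low members such as FN1, COL18A1 and NID1 are limited by depth.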
